A study of Homo sapiens with 2 samples.

Results

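The genes of the mitochondrial respiratory chain and ATP synthase were described in HAL-01, a human line whose labels give it as pre-B acute lymphoblastic leukemia, from 2 RNA-seq libraries. The AG library came from a culture given 0.8 mM 1,5-AG (1,5-anhydroglucitol, a glucose-like polyol) for 24 h, and the Control library from a culture of the same line whose handling the labels leave unstated. Members were all listed genes whose GENCODE 29 protein-coding symbol begins with NDUF, UQCR, ATP5 or MT-, or is COX followed by a digit, SDHA, SDHB, SDHC, SDHD, CYC1 or CYCS. This rule uses names alone and no measured value. It covers 123 symbols, of which 68 were among the 16145 gene IDs listed in either library, and the other 55 were not analysed here. Of these 68 members, 62 are encoded in the nucleus and 6 on mitochondrial DNA.

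The respiratory chain passes electrons from NADH, through complex I, and from succinate, through complex II, to ubiquinone, complex III, cytochrome c and finally oxygen at complex IV. The protons pumped on the way drive complex V, the ATP synthase. Complexes I, III, IV and V are built from subunits of both the nuclear and the mitochondrial genome, complex II from nuclear subunits alone, and dedicated assembly factors put the parts together.

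Levels were compared as FPKM, fragments scaled by a gene's exon length and by library total, so levels of different genes are per length. The AG library held 14857372 fragments and the Control library 16240451, as recovered from the spacing of the lowest values. With 1 library per group there was no replicate check and no test of a difference was possible. Each plain ratio of AG to Control FPKM carries an exact 95% Clopper-Pearson interval from the recovered fragment numbers, which covers counting error only and not the spread between cultures. In bulk RNA, fewer cells of a type and less RNA per cell cannot be told apart. The B cell precursor markers summed to 2.89 FPKM in the AG library and 2.80 FPKM in the Control library, with 9 of 13 listed in either library. The monocyte and granulocyte markers summed to 497 FPKM in AG and 952 FPKM in Control, with 7 of 13 listed, so the markers did not follow the labelled cell type in either library. CTSG, a granule protease, stood at 194 FPKM in AG and 743 FPKM in Control, while the other 6 listed markers of this list summed to 303 FPKM in AG and 209 FPKM in Control. Of the 7, 4 were higher and 3 lower in AG. The part of these marker levels in the results on the respiratory chain was not tested.

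The respiratory genes differed little between the libraries, and more of them leaned higher than lower in AG. A mean level of 1 FPKM or more over both libraries was reached by 53 members, 9 more were listed in both libraries below it, and 3 were listed in AG alone and 3 in Control alone. In AG, 1 of the 53 was higher by 1.5-fold or more and 0 were lower by as much, on the scale log2(FPKM + 1). Over all 5528 features that passed the same filter, 3.6% were at least 1.5-fold higher and 3.33% at least 1.5-fold lower. Among the 4442 protein-coding features of these, 109 were higher and 59 lower by as much. The members' count lay near or under either background. The log2 ratio was above 0 for 34 of the 53 members, beside 43.2% of all features, and the median log2 ratio was 0.04 for the members and -0.03 for all features. The interval of the plain ratio lay above 1 for 15 of the 52 members with recovered fragments and below 1 for 6, beside 16.9% and 22.9% of all features. Deeper genes have narrower intervals. Among genes with at least 1000 fragments in each library, the interval lay above 1 for 11 of 25 members and below 1 for 3, beside 26.5% and 31.8% of such features. The plot of ratios by complex shows how close most members lie to 1.

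**Figure D1:**
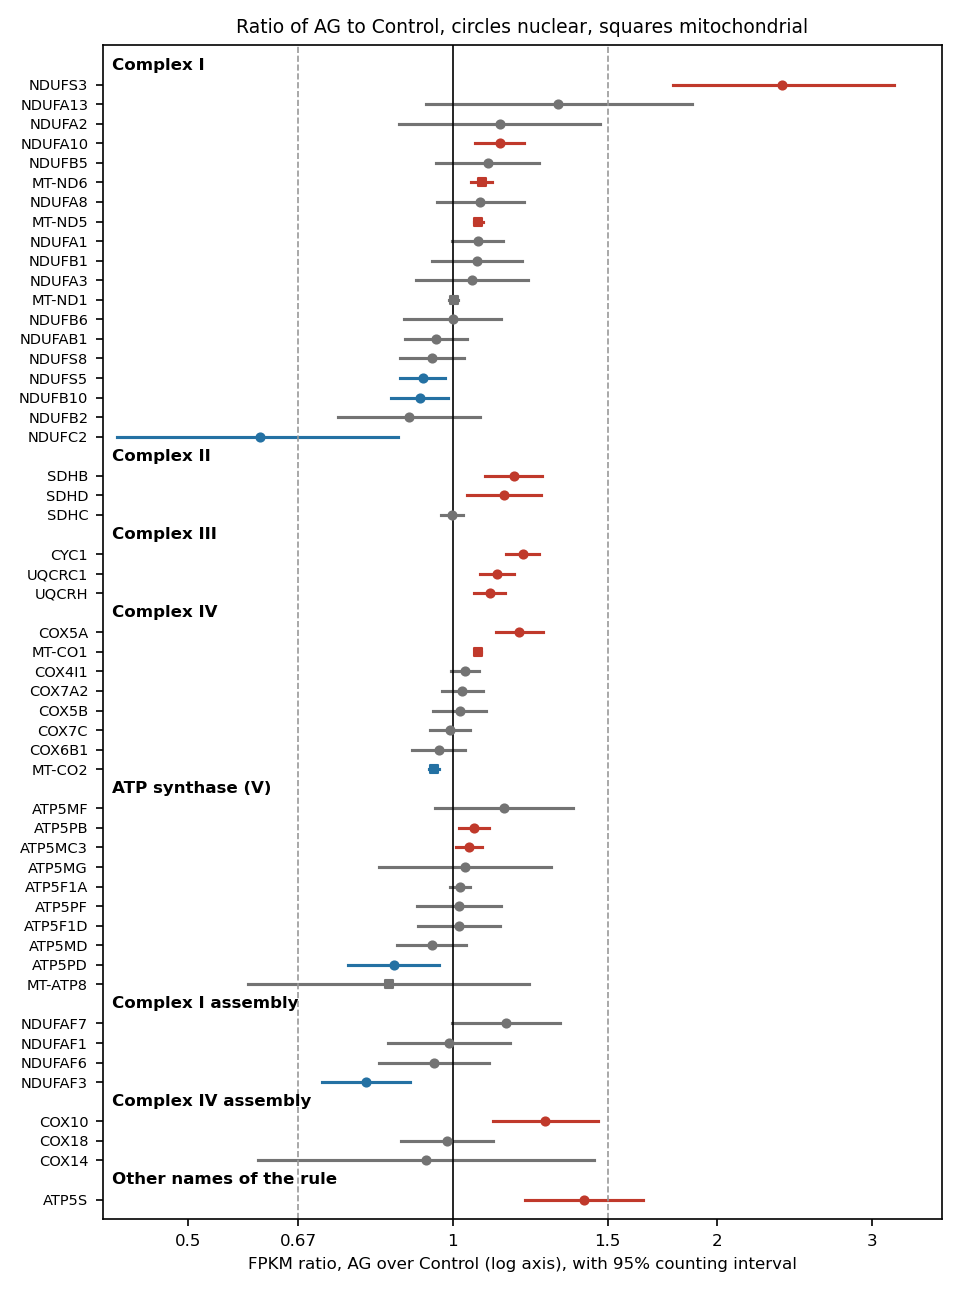
Plain ratio of AG to Control FPKM (log axis) for members that average 1 FPKM or more and have recovered fragments, grouped by complex and role, 1 library per group. Points are ratios, bars are exact 95% counting intervals, red and blue mark intervals above and below 1, and dashed lines mark 1.5-fold. Most intervals include 1, NDUFS3 stands at 2.37 and NDUFC2 at 0.603.

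Promoter sequences of the nuclear members were searched for known motifs, and no single motif was found in most of them. Windows of 250 bases before to 50 after a gene start, from RefSeq on GRCh38.p14, were found for 46 of the 62 nuclear members. Only those of SDHB, SDHD, UQCRC1, UQCRH and NDUFS3 are printed, all of which hold a motif. Windows of other members, with or without a motif, are not shown. The printed windows run 5′ to 3′ on the gene's strand, with capitals at the motifs searched. These are sites of factors known to act on respiratory genes, searched on both strands: NRF1 (its palindromic consensus), the ETS factors including GABPA as CCGGAAG, YY1 as AANATGGCG and the oestrogen-related receptors (ERR) as TNAAGGTCA. A match on the other strand appears as its reverse complement, and in the printed windows no motif overlaps another. A match is a run of letters, not a shown binding site.
SDHB (chr1:17053983-17054282, minus strand; ETS and YY1): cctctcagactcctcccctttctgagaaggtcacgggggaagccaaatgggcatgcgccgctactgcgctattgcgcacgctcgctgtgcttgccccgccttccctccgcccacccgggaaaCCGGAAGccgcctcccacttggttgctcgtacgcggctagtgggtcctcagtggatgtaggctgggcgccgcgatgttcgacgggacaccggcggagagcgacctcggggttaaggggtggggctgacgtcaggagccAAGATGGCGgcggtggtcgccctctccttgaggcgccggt
SDHD (chr11:112086623-112086922, plus strand; NRF1, ETS and ERR): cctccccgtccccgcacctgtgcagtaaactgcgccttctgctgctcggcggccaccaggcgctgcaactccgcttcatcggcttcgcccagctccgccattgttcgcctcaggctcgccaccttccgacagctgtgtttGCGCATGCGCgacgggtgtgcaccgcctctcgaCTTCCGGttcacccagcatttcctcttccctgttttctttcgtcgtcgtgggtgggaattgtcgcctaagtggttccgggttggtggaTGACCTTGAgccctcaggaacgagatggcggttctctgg
UQCRC1 (chr3:48609597-48609896, minus strand; NRF1 and YY1): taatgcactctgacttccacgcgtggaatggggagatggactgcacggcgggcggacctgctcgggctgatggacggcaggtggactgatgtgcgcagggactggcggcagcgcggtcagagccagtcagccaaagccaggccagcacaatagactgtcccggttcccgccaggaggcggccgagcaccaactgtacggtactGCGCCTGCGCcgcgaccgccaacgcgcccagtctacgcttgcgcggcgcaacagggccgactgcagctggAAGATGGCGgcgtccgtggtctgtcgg
UQCRH (chr1:46303448-46303747, plus strand; ETS): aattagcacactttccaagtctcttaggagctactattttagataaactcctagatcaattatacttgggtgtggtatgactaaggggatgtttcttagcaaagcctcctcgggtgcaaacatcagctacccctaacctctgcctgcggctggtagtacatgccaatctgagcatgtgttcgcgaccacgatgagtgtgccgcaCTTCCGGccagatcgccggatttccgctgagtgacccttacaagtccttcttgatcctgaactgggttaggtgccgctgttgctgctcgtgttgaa
NDUFS3 (chr11:47578824-47579123, plus strand; 2 ETS and YY1): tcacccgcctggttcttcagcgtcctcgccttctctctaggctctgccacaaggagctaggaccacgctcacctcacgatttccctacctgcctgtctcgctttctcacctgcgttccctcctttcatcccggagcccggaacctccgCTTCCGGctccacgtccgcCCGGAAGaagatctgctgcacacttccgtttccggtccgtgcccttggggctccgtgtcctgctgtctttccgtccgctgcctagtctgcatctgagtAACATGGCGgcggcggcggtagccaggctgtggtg

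The YY1 letters were in a window of 13 of the 46 nuclear members (28.3%), beside 5.59% of 15843 protein-coding genes. The ETS letters were in 16 (34.8%, beside 16.5%), the NRF1 letters in 8 (17.4%, beside 9.67%) and the ERR letters in 1 (2.17%, beside 0.896%). At least 1 of the 4 motifs was in 28 members (60.9%), beside 28.2% of protein-coding genes. The shares over all 35116 windows of any gene type were 3.19% for YY1, 10.3% for ETS, 5.78% for NRF1 and 0.951% for ERR. In the SDHB, UQCRC1 and NDUFS3 windows the YY1 run contains the ATG of a start codon annotated in GENCODE 29. The same held for 8 of the 12 members with the YY1 letters in the sense of the gene (66.7%), beside 51.6% of 622 protein-coding genes with such a run.

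**Figure D2:**
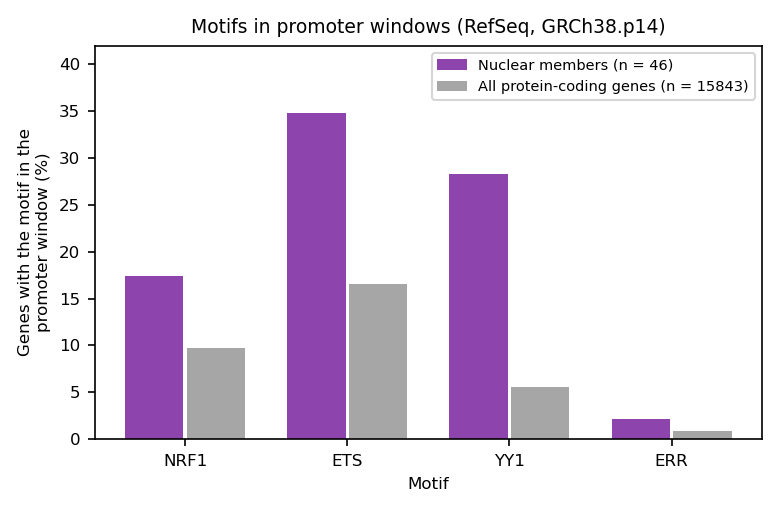
Share of genes (%) with each motif in a promoter window, for the 46 nuclear members with a window and for 15843 protein-coding genes. The YY1 bar stands at 28.3% for the members and 5.59% for all protein-coding genes.

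Complex I, the NADH dehydrogenase, is the largest complex and had 26 subunits listed in both libraries, of which 20 passed the filter with a median log2 ratio of 0.08. The interval lay above 1 for 4 of the 20 and below 1 for 3. NDUFS3, a core subunit of the arm that reaches into the matrix, had 2.33 FPKM in the AG library, against 0.984 FPKM in the Control library. These values rest on 156 fragments in AG and 72 in Control, and the plain ratio was 2.37 (1.78 to 3.18), with a log2 ratio of 0.75 on the log2(FPKM + 1) scale. NDUFS3 was the member past 1.5-fold, and its level was low in both libraries. Of its exon bases, 19.6% also lie in exons of PTPMT1 on the same strand, none of them coding for NDUFS3. PTPMT1, a mitochondrial phosphatase, had 0.860 FPKM in AG and 0.697 FPKM in Control, with a ratio of 1.23 (0.739 to 2.07). The part of this overlap in the NDUFS3 ratio was not tested.

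Other nuclear core subunits of complex I lay nearer to 1 or on few fragments. NDUFS8, an iron-sulfur subunit, had 15.7 FPKM in AG and 16.6 FPKM in Control, with a ratio of 0.947 (0.871 to 1.03) that includes 1. NDUFS7 and NDUFV2, also iron-sulfur subunits, were listed below 0.5 FPKM in both libraries, on 59 fragments or fewer.

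The accessory subunits of complex I, which surround the core, lay on both sides of 1. NDUFA10 had 6.81 FPKM in AG and 6.03 FPKM in Control, with a ratio of 1.13 (1.06 to 1.20). NDUFS5, the most abundant nuclear member of the chain in both libraries, had 251 FPKM in AG and 272 FPKM in Control, with a ratio of 0.924 (0.871 to 0.981). NDUFB10 had 83.1 FPKM in AG and 90.6 FPKM in Control, with a ratio of 0.917 (0.851 to 0.989). Scaling AG by the median of ratios over all features brought 1 into the intervals of NDUFS5 and NDUFB10, and moved those of NDUFA1, MT-ND1, COX4I1, ATP5F1A and NDUFAF7 above 1. NDUFC2 had 1.40 FPKM in AG, on 48 fragments, against 2.33 FPKM in Control, on 87 fragments, with a ratio of 0.603 (0.415 to 0.868). It is the lowest ratio among members that passed the filter, and 76.9% of its coding bases lie in exons of the readthrough gene NDUFC2-KCTD14. Of the abundant accessory subunits, NDUFA1 had 139 FPKM in AG and 130 FPKM in Control, and NDUFA8 had 50.5 FPKM in AG and 46.9 FPKM in Control. NDUFAB1, the mitochondrial acyl carrier protein, had 49.2 FPKM in AG and 51.4 FPKM in Control. All of them had intervals that include 1. So did NDUFA2, NDUFA3, NDUFA13, NDUFB1, NDUFB2, NDUFB5 and NDUFB6, at 1.89 to 23.0 FPKM in AG and 1.43 to 23.0 FPKM in Control.

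**Figure D3:**
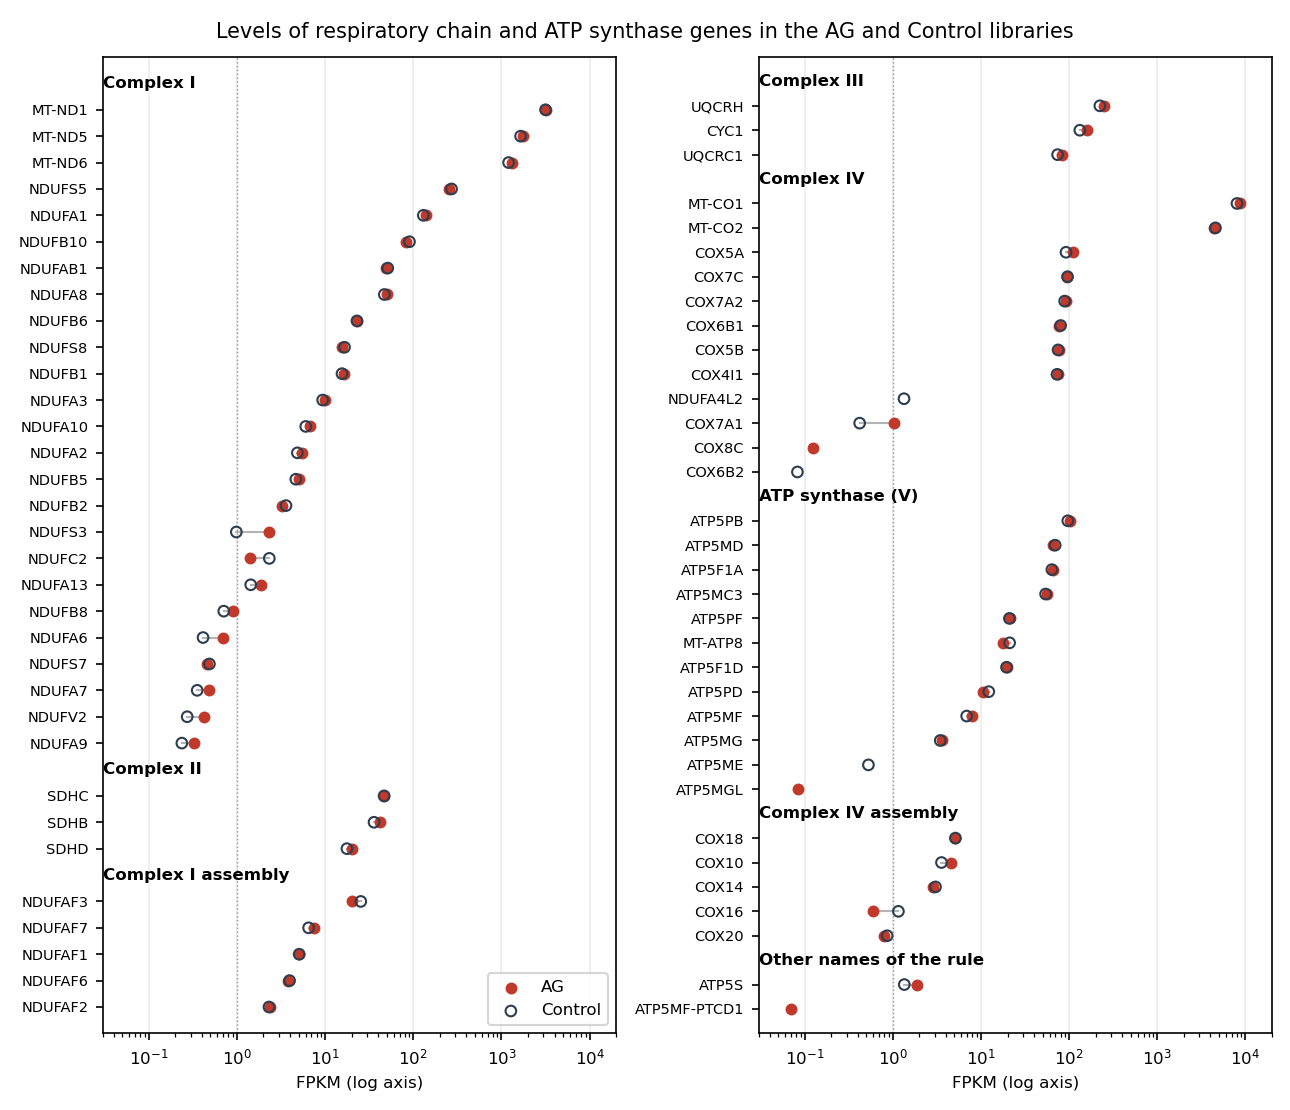
Level of members in FPKM (log axis) in the AG and the Control library, grouped by complex and role, 1 library per group. Paired points nearly coincide for most members, and the mitochondrial mRNAs other than MT-ATP8 lie above every nuclear member.

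Complex II, succinate dehydrogenase, had 3 members, and the interval lay above 1 for 2 of them. SDHB, the iron-sulfur subunit, had 42.1 FPKM in AG, against 35.9 FPKM in Control, with a ratio of 1.17 (1.09 to 1.26). SDHD, a membrane anchor that helps bind ubiquinone, had 20.2 FPKM in AG, against 17.7 FPKM in Control, with a ratio of 1.14 (1.04 to 1.26). SDHC, the other anchor, had 46.5 FPKM in AG and 46.7 FPKM in Control, with a ratio of 0.998 (0.970 to 1.03). The subunits of this complex therefore did not share 1 ratio: the SDHB and SDHC intervals do not overlap. Of the coding bases of SDHD, 47.7% lie in exons of another gene on the same strand, and the largest listed level of a pseudogene named after it was 5.61 FPKM, so its value is less certain than the others.

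Complex III, which passes electrons from ubiquinol to cytochrome c, had 3 subunits listed, and all 3 intervals lay above 1. CYC1, cytochrome c1, had 159 FPKM in AG, against 132 FPKM in Control, with a ratio of 1.20 (1.15 to 1.25). UQCRC1, a large matrix-facing core protein, had 83.1 FPKM in AG, against 74.0 FPKM in Control, with a ratio of 1.12 (1.07 to 1.17). UQCRH, the hinge protein, had 246 FPKM in AG, against 223 FPKM in Control, with a ratio of 1.10 (1.06 to 1.15). These are small differences on 3848 to 4895 fragments each. The median log2 ratio was 0.17 here and 0.18 in complex II, each over 3 genes, and other subunits of complex III were not analysed here.

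Complex IV, cytochrome c oxidase, had 8 subunits past the filter with a median log2 ratio of 0.03. COX5A, a nuclear subunit on the matrix side, had 110 FPKM in AG, against 92.1 FPKM in Control, with a ratio of 1.19 (1.12 to 1.27). The intervals of COX4I1, COX5B, COX6B1, COX7A2 and COX7C include 1, with levels of 75.2 to 95.2 FPKM in AG and 72.8 to 95.9 FPKM in Control. COX7A1, the isoform known from heart and skeletal muscle, had 1.03 FPKM in AG on 18 fragments and 0.420 FPKM in Control on 8 fragments, with a ratio of 2.46 (1.02 to 6.54). By level, COX7A2 was 88.2 times COX7A1 in AG and 212 times in Control. NDUFA4L2, a paralogue of the complex IV subunit NDUFA4 known as a hypoxia-response gene, was listed in Control alone, at 1.34 FPKM on 61 fragments, and was not compared. COX8C was listed in AG alone and COX6B2 in Control alone, both below 1 FPKM.

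Complex V had 10 subunits past the filter and a median log2 ratio of 0.03. ATP5F1A, the alpha subunit of the catalytic head, had 65.0 FPKM in AG and 63.7 FPKM in Control, with a ratio of 1.02 (0.993 to 1.05). ATP5PB, a subunit of the peripheral stalk, had 102 FPKM in AG, against 96.6 FPKM in Control, with a ratio of 1.06 (1.02 to 1.10). ATP5MC3, 1 of the genes for the c subunit of the rotor ring, had 56.5 FPKM in AG, against 54.0 FPKM in Control, with a ratio of 1.04 (1.01 to 1.08). ATP5PD, another stalk subunit, lay on the other side, with 10.5 FPKM in AG, against 12.3 FPKM in Control, and a ratio of 0.857 (0.761 to 0.964). The stalk subunits ATP5PB and ATP5PD therefore differed in direction. The intervals of ATP5F1D, ATP5MD, ATP5MF, ATP5MG and ATP5PF include 1, at 3.57 to 65.7 FPKM in AG and 3.45 to 69.4 FPKM in Control. ATP5S, a coupling factor named with the family, had 1.90 FPKM in AG, against 1.35 FPKM in Control, with a ratio of 1.41 (1.21 to 1.65). ATP5MGL and ATP5MF-PTCD1 were listed in AG alone and ATP5ME in Control alone, each below 1 FPKM.

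The mitochondrial genome encodes 13 proteins, of which 6 were listed. Their mRNAs held 2.31% of the implied fragments in AG (2.30 to 2.32) and 2.21% in Control (2.21 to 2.22), with exact Clopper-Pearson intervals. The nuclear members together held 0.555% in AG and 0.532% in Control. The median mitochondrial member was 188 times the median nuclear member in AG and 173 times in Control, by FPKM over members listed in both. Both genomes' members thus took slightly larger shares in the AG library. The median log2 ratio was 0.05 for the 6 mitochondrial and 0.04 for the 47 nuclear members that passed the filter. Under scaling by the median of ratios, the mitochondrial median became 0.09 and the nuclear median 0.06.

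The mitochondrial mRNAs did not all lean the same way. MT-CO1, the catalytic subunit of complex IV and the highest member, had 8562 FPKM in AG, against 8009 FPKM in Control, with a ratio of 1.07 (1.06 to 1.08). MT-CO2, which receives electrons from cytochrome c, had 4346 FPKM in AG, against 4567 FPKM in Control, with a ratio of 0.952 (0.940 to 0.964). The ratio of MT-CO2 to MT-CO1 was therefore 0.508 in AG and 0.570 in Control. Of the complex I mRNAs, MT-ND5 had 1763 FPKM in AG, against 1648 FPKM in Control, with a ratio of 1.07 (1.06 to 1.08). MT-ND6, the protein gene on the light strand, had 1301 FPKM in AG, against 1205 FPKM in Control, with a ratio of 1.08 (1.05 to 1.11). The MT-ND6 to MT-ND5 level ratio was nearly alike, at 0.738 in AG and 0.731 in Control. MT-ND1 had 3171 FPKM in AG and 3164 FPKM in Control, with a ratio of 1.00 (0.989 to 1.02).

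MT-ATP8, a small complex V subunit, stood far below the other mitochondrial mRNAs. It had 17.9 FPKM in AG on 55 fragments and 21.1 FPKM in Control on 71 fragments, with a ratio of 0.847 (0.584 to 1.22) that includes 1. Its gene lies on chrM:8366-8572 and shares its last 46 of 207 bases (22.2%) with MT-ATP6, which begins at 8527 and ends at 9207 and was not analysed here. The sequence, from GENCODE 29 transcripts on GRCh38, is shown because the shared run, in capitals, can give reads to either gene.
MT-ATP8: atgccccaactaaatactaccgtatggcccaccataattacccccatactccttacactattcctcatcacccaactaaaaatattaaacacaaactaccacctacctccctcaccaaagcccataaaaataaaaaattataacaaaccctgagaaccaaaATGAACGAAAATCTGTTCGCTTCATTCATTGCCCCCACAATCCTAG
The part of this overlap in the low MT-ATP8 level was not tested.

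Among members past the filter, nuclear subunits and assembly factors differed in median level more than either differed between libraries. The gap was not seen within complex I when all members listed in both libraries were kept. Nuclear subunits of complex I then had a median of 5.48 FPKM in AG and 4.85 FPKM in Control. Its assembly factors had 5.03 FPKM in AG and 5.08 FPKM in Control. The nuclear subunits that passed the filter had a median of 44.3 FPKM in AG and 41.3 FPKM in Control. Over all nuclear subunits listed in both libraries it was 21.2 FPKM in AG and 21.0 FPKM in Control. The 8 assembly factors had a median of 4.78 FPKM in AG and 4.51 FPKM in Control, with ranges of 2.39 to 20.2 FPKM in AG and 2.31 to 25.4 FPKM in Control. Their median log2 ratio was -0.01, which became 0.02 under scaling by the median of ratios. COX10, which makes the haem A precursor for complex IV, had 4.54 FPKM in AG, against 3.56 FPKM in Control, with a ratio of 1.27 (1.11 to 1.46). NDUFAF3, a complex I assembly factor and the highest of the 8, had 20.2 FPKM in AG, against 25.4 FPKM in Control, with a ratio of 0.797 (0.710 to 0.893). The assembly factors NDUFAF1, NDUFAF6, NDUFAF7, COX14 and COX18 had intervals that include 1, and NDUFAF2, whose fragments were not recovered, had 2.39 FPKM in AG and 2.31 FPKM in Control. COX16, below the filter, had 0.597 FPKM in AG on 17 fragments and 1.16 FPKM in Control on 36 fragments, with a ratio of 0.516 (0.272 to 0.943). Of its coding bases, 78.7% lie in exons of the readthrough gene SYNJ2BP-COX16.

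Several subunits that every respiring cell needs were listed near 0. By FPKM, the highest nuclear complex I subunit, NDUFS5, was 776 times the lowest, NDUFA9, in AG and 1147 times in Control. NDUFS5 had 2045 fragments in AG and 2419 in Control, over a length of 548 bases. NDUFA9 had 50 fragments in AG and 40 in Control, over 10391 bases. The FPKM ratios therefore hold the difference in length as well as that in fragments. Complex I itself holds its subunits in fixed numbers. NDUFA9 had 0.324 FPKM in AG and 0.237 FPKM in Control, and NDUFV2 had 0.422 FPKM in AG and 0.273 FPKM in Control. NDUFA6, NDUFA7, NDUFB8 and NDUFS7 also averaged below 1 FPKM, as did COX20, a complex IV assembly factor. For 8 of the nuclear members listed in both libraries, over 50% of coding bases lie in exons of another gene on the same strand, such as a readthrough gene. These 8 had a median of 0.753 FPKM in AG and 0.932 FPKM in Control, and 7 of them averaged below 2.5 FPKM. The 46 members that share no coding base had a median of 20.7 FPKM in AG and 21.5 FPKM in Control, and 7 of them averaged below 2.5 FPKM. The same was seen over nuclear protein-coding genes: 80.6% of the 283 with over 50% shared averaged below 2.5 FPKM, beside 40.6% of the 5774 that share none. Of the 14 members below 2.5 FPKM, 2 more, NDUFS7 and COX20, share 48.5% and 80.0% of their coding bases with a gene on the opposite strand, and 5, NDUFS3, NDUFA6, COX7A1, ATP5S and NDUFAF2, share less. The part of exon sharing in these levels was not tested, and it is unstated whether counting used the strand.

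**Figure D4:**
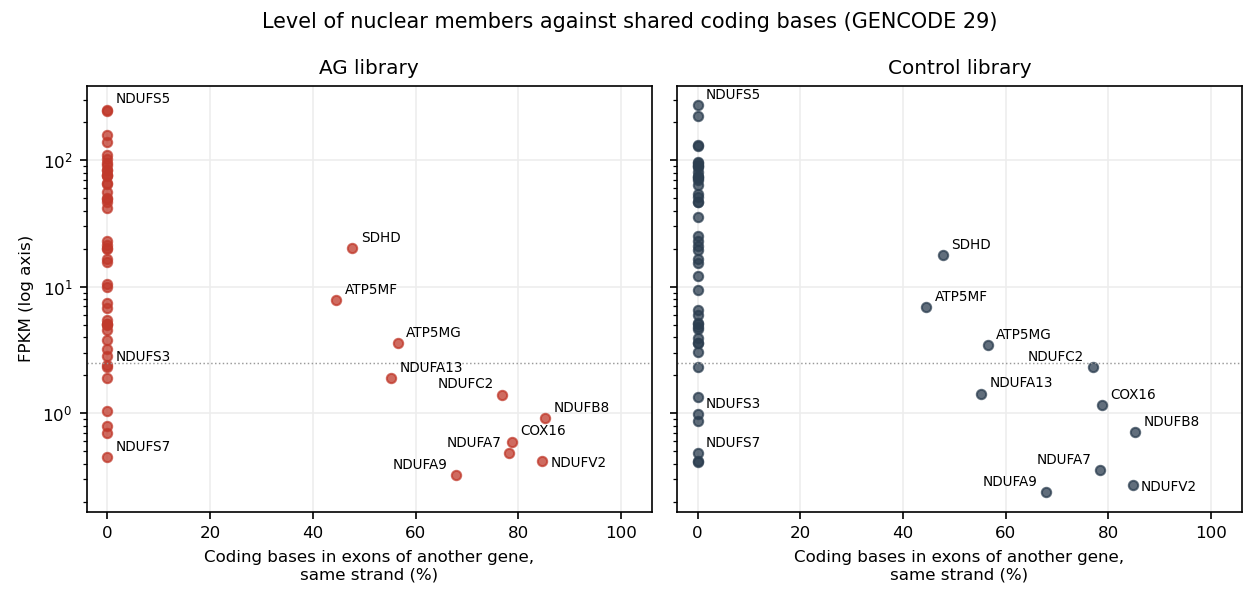
Level of nuclear members in FPKM (log axis) against the percent of coding bases that lie in exons of another gene on the same strand, in the AG library on the left and the Control library on the right. The dotted line marks 2.5 FPKM, and 7 of the 8 members above 50% average below it.

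Other genes of the pathway that were listed in both libraries and passed the filter showed no change past 1.5-fold in either direction. Of all features, 6.93% were past it either way. Protein-coding features passed it less often, with 109 of 4442 higher and 59 lower. Of 41 other assembly factors of complexes I to V, 19 passed the filter, with a median log2 ratio of -0.04. Their median level was 11.6 FPKM in AG and 13.7 FPKM in Control, above that of the 8 assembly factors among the members. The largest ratio was that of SDHAF1, which serves complex II, at 8.68 FPKM in AG and 6.84 FPKM in Control, and the smallest that of DMAC1, a complex I factor, at 4.05 FPKM in AG and 5.46 FPKM in Control. Of 25 genes for maintenance and expression of mitochondrial DNA, 11 passed, with a median of 0.00 that was slightly below 0 as deposited and 0.03 under scaling by the median of ratios. LRPPRC, which stabilises mitochondrial mRNAs, had 18.0 FPKM in AG, against 16.0 FPKM in Control, and FASTKD1, of the same field, had 15.3 FPKM in AG, against 13.1 FPKM in Control. Of the 11, 7 lay below 0, the smallest being SUPV3L1, a mitochondrial RNA helicase, at 10.2 FPKM in AG and 11.2 FPKM in Control, and FASTKD3 at 10.1 FPKM in AG and 10.6 FPKM in Control. Of 12 nuclear regulators, 6 were listed in either library. Those listed in AG alone, at up to 24.2 FPKM, were not compared. The 4 listed in both libraries passed, with a median of -0.07 and values a little lower in AG for each. NRF1 had 6.60 FPKM in AG and 6.92 FPKM in Control, and GABPA, an ETS factor, had 10.6 FPKM in AG and 11.2 FPKM in Control, with intervals that include 1. HCFC1, a transcriptional cofactor, had 40.1 FPKM in AG, against 42.4 FPKM in Control, with a ratio of 0.946 (0.912 to 0.982). The median-of-ratios factor, 0.975, lies inside this interval, so scaling AG by it brings 1 into the interval. The median of the regulators became -0.04 under this scaling. Of 27 carriers of electrons, phosphate and adenine nucleotides, 17 were listed in either library. Those listed in AG alone, at up to 12.0 FPKM, were not compared. Of the 15 listed in both libraries, 13 passed, with a median of 0.04. CHCHD4, which oxidises imported proteins in the intermembrane space, had 19.6 FPKM in AG, against 15.2 FPKM in Control, with a ratio of 1.29 (1.13 to 1.47). COQ4, of ubiquinone synthesis, lay the other way, with 7.83 FPKM in AG, against 9.62 FPKM in Control, and a ratio of 0.814 (0.728 to 0.909).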

How the data were processed

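The authors deposited FPKM values per gene, 1 file per library, with no zeros. Total RNA was extracted with Trizol and made into stranded mRNA libraries, per the labels' protocols. Reads were handled with Trimmomatic, HISAT2, Cufflinks and HTSeq on hg38, per the submitters' processing notes. Tool versions, gene annotation and strand setting are unstated there, so genes that overlap, antisense partners and near-identical copies cannot be told apart.

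IDs were matched to GENCODE 29 (97.1% of 16145 found). Multiplying FPKM by exon length gave whole fragment numbers (tolerance 0.01) in 88.1% of 5259 single-transcript genes of AG and 88.4% of 5315 of Control. This gave each library's total. A gene's fragments were taken at the length nearest to GENCODE 29, between 0.25 and 3 times it, that makes both values whole, which was found for 61 of the 62 members listed in both libraries. That length differed from GENCODE 29 by over 1% for 32 of the 61 and by over 1.5 times for NDUFAF1 (3991 against 1790 bases), NDUFA10 (19359 against 9517) and COX10 (6756 against 3172). Interval widths depend on it. The log2 ratio used a pseudocount of 1 FPKM, which understates changes of low genes. The filter was a mean of at least 1 FPKM. Genes listed in 1 library only were not compared. Since FPKM is relative to each library's total, a few abundant genes shift all others.

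The members and lists were chosen with earlier results of these data known. Any member could be named, and of other lists those with the 2 largest and 2 smallest log2 ratios. Some genes' own values are not reported here, though counts and medians include them. The boundaries of 2.5 FPKM, 50% shared bases (40% on the opposite strand) and 1000 fragments and the roles of 3 symbols were set after values were seen. As alternatives, the pseudocount was set to 0.1 or 5 FPKM, the filter was changed or dropped, and 2 other scalings, a 2-fold threshold and a minimum of 20 fragments were tried. The steps were tested on simulated data. Software was Python 3.11.15 with pandas 2.3.3, numpy 2.4.6, matplotlib 3.10.9 and scipy 1.17.1.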

Additional observations from a re-analysis of the deposited data

How the results depend on the processing

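Of 708 recomputed values, 676 kept within a set tolerance and 32 moved. For a single member this was 1 arm of its counting interval on the log2 scale, or 0.1 without recovered fragments. For a group median it was the median arm of the group's genes, not the counting error of the median itself. For counts it was 1.5 times. NDUFS3, the only member past 1.5-fold, kept its sign, but no change of pseudocount or filter can turn the sign of a single gene. A change of filter also leaves single values as they are. Among values near 0, 8 signs turned under the 2 scalings, none with a size above 0.0172 as deposited. Under the median of ratios 6 turned: the medians of the assembly factors and the mitochondrial DNA list, NDUFAF1, SDHC, COX7C and COX18. The 1 member at least 1.5-fold higher in AG, NDUFS3, became 0 with a pseudocount of 5 FPKM, under a filter of 5 FPKM and with a 2-fold threshold, and the same held for the nuclear members, all subunits and complex I. The 0 members lower became 1, NDUFC2, with a pseudocount of 0.1 FPKM. The median log2 ratio of the mitochondrial members was 0.0855 under scaling by the median of ratios, beside 0.0646 for the nuclear members. Over all features, the 199 higher became 303 and the 184 lower 328 with a pseudocount of 0.1 FPKM, 64 and 36 with a pseudocount of 5 FPKM, 76 and 41 under a filter of 5 FPKM, 65 and 49 with a 2-fold threshold, and 119 and 75 with at least 20 fragments. In an alternative chosen after seeing the data, scaling by the median of ratios, intervals lay above 1 for 20 members and below 1 for 4, beside 20.6% and 18.1% of all features, against 16.9% and 22.9% as deposited. No paired analysis was possible because there was 1 library per group and the labels give no replicate numbers, and no library could be left out. The AG library was the shallower, and members on fewer than 100 fragments in a library have wide intervals.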

Other observations

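Among other transcripts with mitochondrial sequence, the 12S ribosomal RNA MT-RNR1 had 745 FPKM in AG, against 681 FPKM in Control, with a ratio of 1.09 (1.06 to 1.12). The transfer RNA MT-TP had 338 FPKM in AG, against 282 FPKM in Control, with a ratio of 1.20 (1.02 to 1.40). The nuclear pseudogene MTND2P28, a copy of the complex I gene MT-ND2 on chromosome 1, was listed at 520 FPKM in AG, against 473 FPKM in Control, with a ratio of 1.10 (1.06 to 1.13). Its level exceeded that of every nuclear member, and reads of the copy and of MT-ND2, which was not analysed here, cannot be told apart.

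Members with the YY1 letters in a promoter window were often among the low ones, a pattern chosen after values were seen. Of 13 such members listed in both libraries, 8 averaged below 2.5 FPKM, with a median of 0.909 FPKM in AG and 0.862 FPKM in Control. Of these 8, 6 are among the members described above whose coding bases lie in exons of another gene, over 50% of them on the same strand for 4 and over 40% on the opposite strand for 2. Of 30 members with a window and no YY1 letters, 3 did, with a median of 20.2 FPKM in AG and 20.3 FPKM in Control. Over all protein-coding genes listed in both libraries the order was the other way, with 19.6% of 362 genes with the letters and 42.2% of 4668 genes without them below 2.5 FPKM.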
